A study of Mus musculus with 17 samples.

Results

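The genes described here are 10 members of the feedback and response circuit of TGF-beta and activin signalling: Inhba, Tgfbr3, Ltbp4, Lrrc32, Skil, Smad7, Pmepa1, Ldlrad4, Tgfbi and Ccn2. They were chosen by symbol, with their levels in all 7 groups of the study already known, and are 10 of the 57638 gene IDs in the 2 deposited count tables together. All 10 were listed in both tables, and all 10 passed the filter on low counts in both. Because the choice used these values, the fold changes and calls below describe where the 10 genes stood in a fit of all genes and are not independent support for a pattern.

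RNA was sequenced from the mouse lacrimal gland, the gland that makes the watery part of tears, and from organoids grown from it in BME (basement membrane extract). One table held uncloned wild-type organoid lines 6, 7 and 8 in differentiation medium (DM; 2 days in expansion medium, then 5 days in DM), the same lines after 7 days in expansion medium (EM), and whole wild-type gland tissue 6, 7 and 8 (n = 3 each). The other table held 2 clones labelled Pax6-KO and 2 wild-type (WT) clones, each in DM and in EM (n = 2 per group). For the clones the time in DM is uncertain, since the growth protocol gives the same 5 days and the series text gives 7 days of exposure to each medium. Each clonal line comes from 1 clone, so the genotype comparison set 2 clones against 2 clones. The composition of the media, the Pax6 edit, and the strain and age of the animals are not stated.

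TGF-beta and activin ligands bind pairs of receptor kinases that phosphorylate Smad2 and Smad3, which enter the nucleus with Smad4 and switch on target genes. Some of these targets encode inhibitors of the pathway itself, so that signalling feeds back on its own strength. TGF-beta is stored outside the cell in a latent form bound to carrier proteins, from which integrins and proteases release it. In epithelia the pathway is known for holding back proliferation and for raising matrix and cytoskeletal genes.

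The RefSeq promoter table for GRCm38.p6 held windows for 3 of the 10 genes: Inhba, Tgfbi and Ltbp4, a ligand, a response gene and a latency protein that all rose in DM in uncloned organoids. Each window runs from 250 bases before to 50 bases after the annotated start, 5′ to 3′ on the gene's strand, and is shown because the text below describes how these genes moved. The Inhba window is chr13:16011601-16011900 on the plus strand, the Tgfbi window is chr13:56609336-56609635 on the plus strand, and the Ltbp4 window, the most upstream of 3 in the table, is chr7:27337563-27337862 on the minus strand. Capitals mark matches to the Smad-binding core CAGAC or its reverse complement GTCTG.
Inhba: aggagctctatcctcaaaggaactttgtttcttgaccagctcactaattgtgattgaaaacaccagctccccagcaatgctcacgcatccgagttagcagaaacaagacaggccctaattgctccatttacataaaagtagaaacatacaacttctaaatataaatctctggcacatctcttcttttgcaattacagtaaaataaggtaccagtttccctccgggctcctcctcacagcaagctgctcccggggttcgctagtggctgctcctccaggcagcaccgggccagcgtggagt
Tgfbi: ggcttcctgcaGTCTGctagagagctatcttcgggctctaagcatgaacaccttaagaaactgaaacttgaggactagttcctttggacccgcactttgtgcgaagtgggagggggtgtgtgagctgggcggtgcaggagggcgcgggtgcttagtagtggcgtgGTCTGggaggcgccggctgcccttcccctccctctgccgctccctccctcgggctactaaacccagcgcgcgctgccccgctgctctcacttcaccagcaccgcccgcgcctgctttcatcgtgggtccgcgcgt
Ltbp4: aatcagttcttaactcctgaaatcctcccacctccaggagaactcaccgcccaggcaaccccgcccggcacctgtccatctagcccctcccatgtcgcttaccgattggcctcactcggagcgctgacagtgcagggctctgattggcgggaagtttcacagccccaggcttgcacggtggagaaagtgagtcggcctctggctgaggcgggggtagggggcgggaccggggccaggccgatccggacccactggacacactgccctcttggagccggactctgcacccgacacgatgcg
The motifs were searched on both strands, and none of them contains another: CAGAC, the palindromic site GTCTAGAC, and the AP-1 motif TGACTCA (reverse complement TGAGTCA). The Tgfbi window held 2 matches to the Smad-binding core, which begin 239 and 85 bases before the start, and none to the other motifs. The Inhba window and all 3 Ltbp4 windows held none of the motifs. Of 32851 promoter windows of this length, 49.6% held the core, 0.213% the palindrome and 5.20% the AP-1 motif.

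Libraries held 12801473 to 19207469 counts in the first table and 18282059 to 22500534 in the clone table. The 10 most abundant genes took 65.5% to 67.6% of the counts in gland libraries, against 5.93% to 7.36% in the organoid libraries, and dividing by total counts in place of the trimmed mean of M-values (TMM) raised the median of all genes by 2.06 on the log2 scale in EM organoids over gland and by 1.97 in DM organoids over gland. Pax6 transcripts were present in KO-labelled clones, at 135 and 309 counts per 1000000 of the TMM-scaled library size (CPM) in DM and 172 and 272 CPM in EM, against 219 and 279.7 CPM in DM and 245 and 276 CPM in EM in WT clones. The KO over WT log2 fold change of Pax6 was −0.17 ± 0.385 in DM (SE, adjusted p = 0.831) and −0.23 ± 0.385 in EM (adjusted p = 0.744), so transcript level gives no check of the genotype labels. The summed level of 8 acinar markers was 321 to 411 CPM in DM and 226 to 242 CPM in EM, against 425300 to 469900 CPM in gland, while 8 basal and ductal markers summed to 10190 to 13070 CPM, 7220 to 7527 CPM and 558 to 610 CPM in the same groups. Of the acinar markers, Aqp5, Bhlha15 and Lpo had means of 22.1, 0.763 and 1.53 CPM in DM. In EM their means were 1.92, 1.11 and 0.623 CPM, so other markers of the list made up most of both organoid sums. Against gland, 7 of the 8 acinar markers were lower and 1 was higher in each medium.

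In uncloned organoids, 9 of the 10 genes were higher in DM than in EM and 1, Tgfbr3, was lower. All 10 passed the test (edgeR quasi-likelihood, Benjamini-Hochberg adjusted p under 0.05). In this comparison 30.3% of the 13713 genes tested passed, 17.2% higher and 13.2% lower. For all 10 the DM and EM libraries did not overlap. The share of all genes without overlap was not counted, so that count of 10 has no background. In bulk RNA, more cells of a type and more RNA per cell cannot be told apart. Adjusted p ran from 1.23e-06 for Tgfbr3 to 0.00256 for Lrrc32. The rises spanned 2.59-fold for Ltbp4 to 92.5-fold for Ldlrad4.

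**Figure D1:**
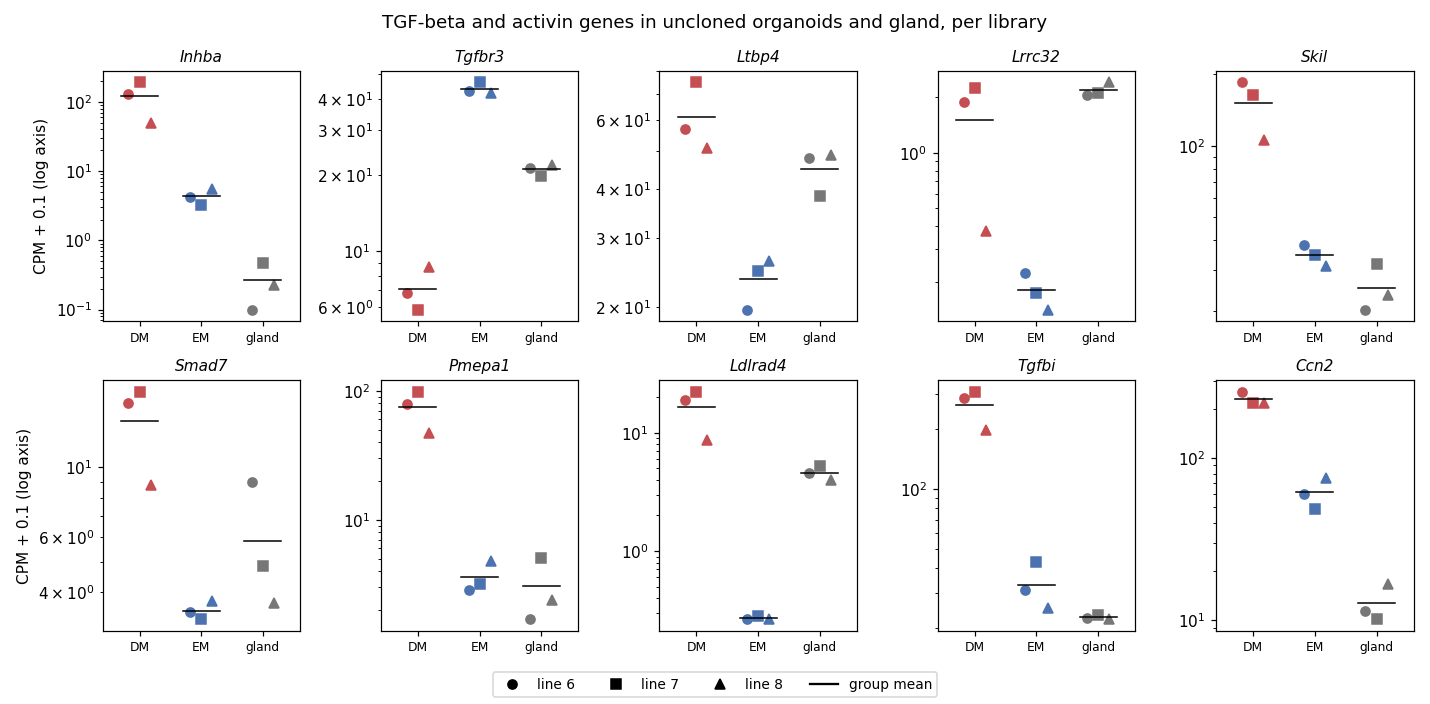
Level of each of the 10 genes in CPM + 0.1 (log axis, with its own range in each panel) in every library of uncloned organoids in DM, organoids in EM, and gland; marker shapes are lines 6, 7 and 8 and black bars are group means (n = 3). The DM points sit above the EM points in 9 panels and below them for Tgfbr3, and Inhba in gland lies at or near 0.

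Inhba (chr13:16011851-16031621, plus strand, GRCm38) encodes the beta-A subunit, 2 of which form activin A. It had 129, 193 and 49.0 CPM in DM for lines 6, 7 and 8, against 4.11, 3.14 and 5.50 CPM in EM, with 0, 0.365 and 0.129 CPM in gland. The DM libraries stood far above the EM libraries, with line 8 the lowest, and the log2 fold change was 4.87 ± 0.451 (SE), or 29.1-fold. Gland held 3 Inhba counts in all 3 libraries together, so the excess over gland is given as a ratio of count rates, 780 in DM (exact 95% Poisson interval 267 to 3780) and 26.5 in EM (9.07 to 128), which cover counting error only.

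Tgfbr3 (chr5:107106570-107289629, minus strand) encodes betaglycan, a co-receptor that presents TGF-beta2 to the signalling receptors and helps inhibin oppose activin. Its level was 6.71, 5.77 and 8.52 CPM in DM, against 42.7, 46.4 and 42.1 CPM in EM, with 21.1, 19.7 and 21.9 CPM in gland. The 3 groups did not overlap, with EM highest and DM lowest. Tgfbr3 fell by 2.64 ± 0.134 on the log2 scale in DM, to 0.160 of its EM level.

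Ltbp4 and Lrrc32 act on latent TGF-beta outside the cell. Ltbp4 (chr7:27305136-27337692, minus strand) encodes a latent TGF-beta binding protein of elastic fibres. It had 56.9, 74.8 and 50.9 CPM in DM, against 19.6, 24.6 and 26.2 CPM in EM, with 47.9, 38.3 and 48.9 CPM in gland. Every DM value lay above every EM value, and the log2 fold change was 1.38 ± 0.159. Lrrc32 (chr7:98489283-98502181, plus strand) encodes GARP, which holds latent TGF-beta on the cell surface and is best known from regulatory T cells and platelets. It was low in this table, at 1.79, 2.15 and 0.277 CPM in DM, against 0.124, 0.0731 and 0.0414 CPM in EM, with 1.95, 2.00 and 2.31 CPM in gland. The EM values rest on 6 counts over the 3 libraries, and the DM value of line 8 was well under those of lines 6 and 7. The log2 fold change of Lrrc32 was 4.03 ± 0.764.

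Another 4 of the genes encode inhibitors that the pathway induces. Skil (chr3:31095058-31122577, plus strand), which encodes the Smad co-repressor SnoN, had 185, 163 and 106 CPM in DM, against 38.0, 34.4 and 31.0 CPM in EM, with 20.2, 31.5 and 23.3 CPM in gland. DM stood apart, while EM and gland overlapped, and the DM over EM log2 fold change was 2.13 ± 0.199. Smad7 (chr18:75367529-75395935, plus strand), the inhibitory Smad that blocks the receptors, had 15.9, 17.3 and 8.67 CPM in DM, against 3.36, 3.18 and 3.64 CPM in EM, with 8.88, 4.74 and 3.60 CPM in gland. Its log2 fold change in DM over EM was 2.04 ± 0.306, and the gland values overlapped those of both media.

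Pmepa1 (chr2:173224458-173276533, minus strand) and Ldlrad4 (chr18:67933257-68268630, plus strand) encode related membrane proteins that keep Smad2 and Smad3 from the receptors. Pmepa1 had 78.8, 97.9 and 47.3 CPM in DM, against 2.74, 3.11 and 4.72 CPM in EM, with 1.60, 4.92 and 2.31 CPM in gland. EM and gland overlapped, and DM was 21.2-fold above EM (log2 fold change 4.41 ± 0.318). Ldlrad4 had 18.9, 22.1 and 8.60 CPM in DM, against 0.166, 0.183 and 0.166 CPM in EM, with 4.44, 5.10 and 3.86 CPM in gland. The 3 groups did not overlap, with DM highest and EM lowest, and the log2 fold change in DM over EM was 6.53 ± 0.433 from 1161 counts in DM and 13 in EM. Fam210a, on the opposite strand, shares 52.1% of the Ldlrad4 exon bases, and the strand setting of the counting is not stated. Fam210a itself had 28.1, 29.5 and 34.2 CPM in DM, against 39.3, 32.8 and 33.7 CPM in EM, and did not pass the test (log2 fold change −0.20 ± 0.133, adjusted p = 0.278).

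Tgfbi and Ccn2 encode secreted matrix proteins that the pathway induces in many cells. Tgfbi (chr13:56609523-56639562, plus strand) had 284, 307 and 197 CPM in DM, against 30.9, 42.6 and 25.1 CPM in EM, with 22.4, 23.1 and 21.98 CPM in gland. DM was 7.97-fold above EM (log2 fold change 3.00 ± 0.202). Ccn2 (chr10:24595442-24598683, plus strand), connective tissue growth factor, is also a well-known YAP target. It had 256, 217 and 220.0 CPM in DM, against 60.1, 48.3 and 75.6 CPM in EM, with 11.4, 10.03 and 16.7 CPM in gland. The 3 groups did not overlap, and the DM over EM log2 fold change was 1.91 ± 0.173, the smallest of the rises after Ltbp4. Gm15270, antisense to Ccn2, shares 23.2% of its exon bases and had at most 1.04 CPM in these libraries.

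Within DM, line 8 was the lowest of the 3 lines for 8 of the 10 genes and line 7 for Ccn2 and Tgfbr3. The DM minus EM difference within a line was smallest in line 8 for Inhba, at 3.13 on the log2 scale, against 4.93 in line 6 and 5.89 in line 7. For Tgfbi it was alike in the 3 lines, at 3.20, 2.84 and 2.96 in lines 6, 7 and 8. All 10 genes still passed when any 1 library of this comparison was left out.

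Markers of other cells moved with the medium. Of 7 myoepithelial markers, 6 of them tested, 5 rose in DM and none fell, and their sum was 137 to 231 CPM in DM, against 6.13 to 7.22 CPM in EM. One of them, Tagln, is also a TGF-beta response gene. Of 10 endothelial and pericyte markers, 3 rose and 1 fell, with sums of 23.4 to 42.7 CPM in DM and 2.74 to 4.26 CPM in EM, and Kdr, Tie1, Emcn and Pdgfrb were at 0 in all 6 libraries. Of 10 fibroblast markers, 2 rose and 1 fell, with sums of 55.8 to 113 CPM in DM and 133 to 144 CPM in EM, and Lum, Col1a2, Col3a1, Mfap5 and Pi16 were at 0 in all 6. Of 10 leukocyte markers, 7 of them tested, 2 rose, with sums of 16.4 to 22.3 CPM in DM and 14.5 to 23.7 CPM in EM, and Ptprc, Cd3e and Adgre1 were at 0 in all 6. Single genes made up most of these last 3 kinds of sum. Fbln1 had means of 137 CPM in EM and 75.6 CPM in DM among the fibroblast markers. Rgs5 had 32.4 CPM in DM and 0.268 CPM in EM among the endothelial and pericyte markers. It led that sum in DM only, since Egfl7 at 2.04 CPM and Vwf at 1.10 CPM stood above it in EM. Cd68 had 17.6 CPM in EM and 17.3 CPM in DM among the leukocyte markers. The part of the marker changes in the results above was not tested.

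Against gland, organoids in DM had higher levels of 8 of the 10 genes and a lower level of Tgfbr3, while Lrrc32 did not pass (log2 fold change −0.59 ± 0.583, adjusted p = 0.377). Here 75.5% of the genes tested passed (38.1% higher, 37.4% lower), so a call was common, and with scaling by library totals 93.2% passed (84.0% higher, 9.26% lower). The log2 fold changes of DM over gland were 4.70 ± 0.385 for Pmepa1, 4.16 ± 0.209 for Ccn2, 3.54 ± 0.220 for Tgfbi, 2.60 ± 0.216 for Skil, 1.90 ± 0.331 for Ldlrad4, 1.31 ± 0.331 for Smad7, whose groups overlapped, and 0.43 ± 0.162 for Ltbp4. The Ltbp4 call was lost without DM line 7 (adjusted p = 0.123) or gland 7 (adjusted p = 0.110). Tgfbr3 fell by 1.58 ± 0.143 on the log2 scale, but was higher in DM than in gland, at 0.39, when counts were scaled by library totals.

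Organoids in EM were higher than gland for 4 of the 10 genes and lower for 3, where 74.8% of all genes tested passed (37.4% higher, 37.4% lower), a share near that of the 10. With scaling by library totals 93.3% passed (83.8% higher, 9.49% lower). Inhba, Ccn2 (log2 fold change 2.24 ± 0.204), Tgfbr3 (1.06 ± 0.133) and Tgfbi (0.55 ± 0.214) were the higher ones. The Tgfbi call was lost without EM line 7 (adjusted p = 0.143) or without any 1 gland library (adjusted p = 0.0684 to 0.0924). Ldlrad4 was lower by a log2 fold change of −4.63 ± 0.506, Lrrc32 by −4.61 ± 0.817 and Ltbp4 by −0.94 ± 0.165, although scaling by library totals turned Ltbp4 to 1.12. Skil, Smad7 and Pmepa1 did not pass (adjusted p = 0.0667, 0.0802 and 0.586). Skil passed as higher in EM with the line as a block, without a filter, with only the groups compared and without gland 7 (adjusted p = 0.00727 to 0.037), and Smad7 passed as lower in DESeq2, with only the groups compared and without gland 8 (adjusted p = 0.0325 to 0.049). With scaling by library totals all 3 were higher in EM, at log2 fold changes of 2.53 for Skil, 1.33 for Smad7 and 2.34 for Pmepa1. All 10 fibroblast markers were detected in every gland library, where they summed to 706 to 837 CPM, and all 10 endothelial and pericyte markers were too, at 85.0 to 100.3 CPM. Leukocyte markers summed to 209 to 334 CPM and myoepithelial markers to 297 to 312 CPM in gland. The part of these cells in the gland levels was not tested.

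Per kilobase of merged exon, which allows levels to be compared between genes, the most abundant of the 10 in DM was Ccn2 at 80.8 ± 7.65 CPM per kb (SD, n = 3), followed by Tgfbi at 69.6 ± 15.4, whose ranges overlapped. Inhba at 19.3 ± 11.3, Skil at 15.6 ± 4.22 and Pmepa1 at 15.2 ± 5.21 CPM per kb formed the next group, also with overlapping ranges. In EM the order began with Ccn2 at 21.4 ± 4.79 and Tgfbi at 8.72 ± 2.37, and Tgfbr3 was the third at 6.68 ± 0.352 CPM per kb, within the range of Tgfbi. In gland Ltbp4 was the highest at 6.97 ± 0.907 CPM per kb, with Tgfbi next at 5.97 ± 0.158 and overlapping it, and Inhba the lowest at 0.0257 ± 0.0289. In the clones in DM, Ccn2 led at 155 CPM per kb in KO-labelled and 165 CPM per kb in WT clones, followed by Inhba at 118 and 65.7 CPM per kb (means, n = 2 each).

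In the clones the same 9 genes had higher means in DM than in EM in both genotypes and Tgfbr3 a lower one. In KO-labelled clones 8 of the 10 rose and Tgfbr3 fell, where 8.35% of the 14282 genes tested passed (4.94% higher, 3.41% lower). In WT clones 8 rose and Tgfbr3 fell as well, where 15.7% passed (9.61% higher, 6.13% lower). The gene that did not pass was Lrrc32 in KO-labelled clones and Tgfbi in WT clones. These comparisons rest on 2 clones per group, and the 8 clone libraries share 1 estimate of the spread. Without KO-labelled EM clone 2, which leaves 1 library in that group, fewer of the 10 and also fewer of all genes passed in KO-labelled clones.

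**Figure D2:**
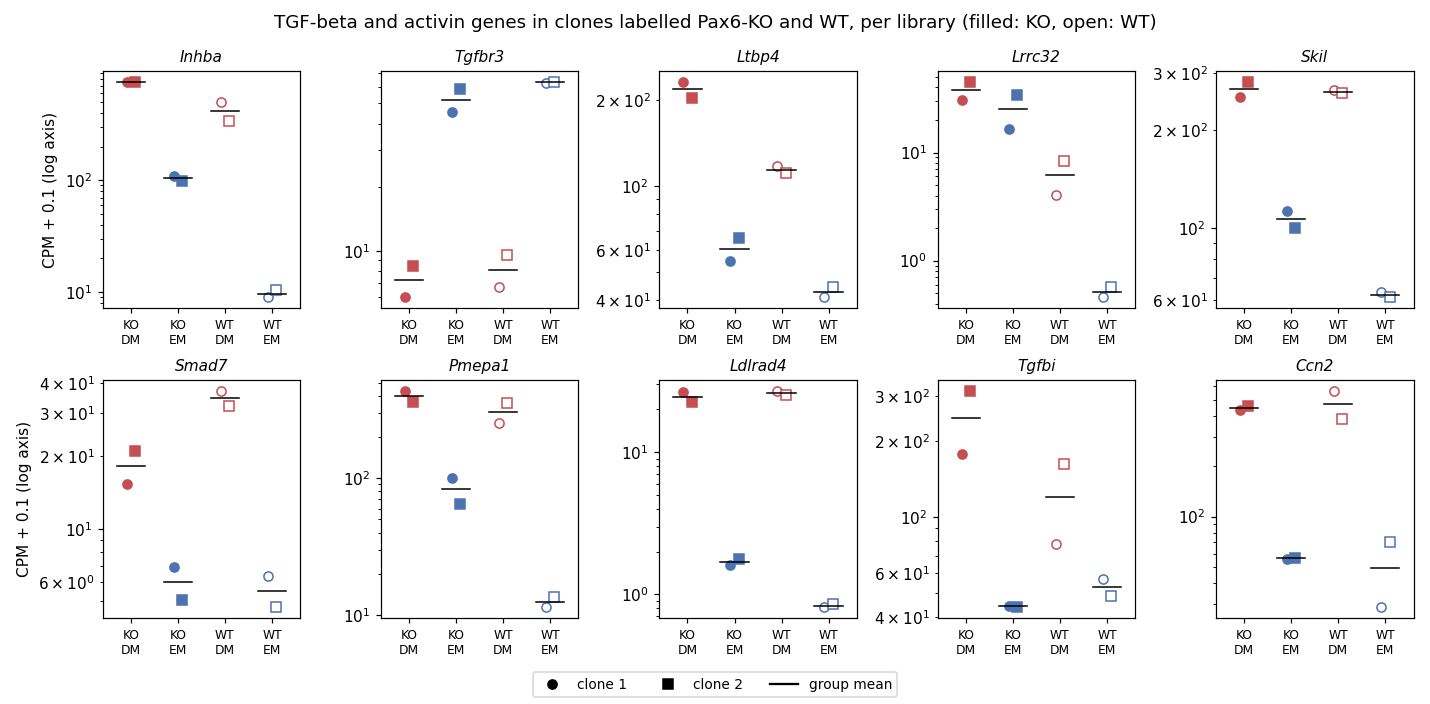
Level of each of the 10 genes in CPM + 0.1 (log axis, with its own range in each panel) in every clone library, KO-labelled clones (filled) in DM and EM left of WT clones (open) in DM and EM; circles are clone 1, squares clone 2, and black bars are means (n = 2). In EM, Inhba, Pmepa1 and Lrrc32 are 10.8-fold, 6.66-fold and 59.7-fold higher in KO-labelled than in WT clones, while Tgfbr3 is low in DM in all 4 clones.

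Inhba had 761 and 751 CPM in DM and 109 and 98.5 CPM in EM in KO-labelled clones 1 and 2, against 499 and 340 CPM in DM and 8.88 and 10.3 CPM in EM in WT clones 1 and 2. No 2 of the 4 groups overlapped. DM over EM was 7.30-fold in KO-labelled clones (log2 fold change 2.87 ± 0.198) and 43.7-fold in WT clones (5.45 ± 0.227). In EM the KO-labelled clones were 10.8-fold above WT (3.43 ± 0.209), and their level was 24.7% of that of WT clones in DM, while WT clones in EM stood at 2.29% of it.

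Pmepa1 showed a similar order, with 432 and 359 CPM in DM and 101 and 64.9 CPM in EM in KO-labelled clones, against 251 and 356 CPM in DM and 11.3 and 13.6 CPM in EM in WT clones. The DM groups were close, with no overlap, and the difference did not pass (log2 fold change 0.38 ± 0.248, adjusted p = 0.395). In EM the KO-labelled clones were 6.66-fold above WT (2.74 ± 0.273). DM over EM was 4.77-fold in KO-labelled and 24.4-fold in WT clones, and the KO-labelled call was lost without EM clone 2 (adjusted p = 0.0513).

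Lrrc32 had the largest KO over WT fold change of the 10 genes in both media. It had 30.2 and 45.2 CPM in DM and 16.3 and 33.6 CPM in EM in KO-labelled clones, against 3.93 and 8.25 CPM in DM and 0.357 and 0.469 CPM in EM in WT clones. Every KO-labelled library lay above every WT library, in EM by a log2 fold change of 5.90 ± 0.602, or 59.7-fold, and in DM by 2.64 ± 0.469. The DM and EM values of KO-labelled clones overlapped and did not pass the test (0.60 ± 0.435, adjusted p = 0.468), while with the clone as a block DM was higher (0.65 ± 0.175, adjusted p = 0.0469), in a fit where 16.4% of all genes passed (9.25% higher, 7.12% lower). In WT clones DM exceeded EM by 3.86 ± 0.596 from 18 EM counts, a call that was lost without WT EM clone 1 (adjusted p = 0.0615). In each clone library 5 to 7 of 10 leukocyte markers were at 0, and Ptprc, the pan-leukocyte marker, was at 0 in all 8. Others were detected, and the 10 markers summed to 31.4 to 63.4 CPM in KO-labelled and 98.9 to 193 CPM in WT clones. The part of such cells in the Lrrc32 level was not tested.

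Ltbp4, the other latency protein, had 231 and 203 CPM in DM and 54.7 and 65.9 CPM in EM in KO-labelled clones, against 117 and 111 CPM in DM and 40.8 and 44.2 CPM in EM in WT clones. No groups overlapped. DM over EM was 3.60-fold in KO-labelled (log2 fold change 1.85 ± 0.125) and 2.68-fold in WT clones (1.42 ± 0.125). KO-labelled clones were above WT by 0.93 ± 0.122 in DM (adjusted p = 0.0180) and by 0.50 ± 0.123 in EM (adjusted p = 0.0484). The EM call was lost without any 1 of its 4 libraries (adjusted p = 0.0810 to 0.245) and the DM call without KO-labelled clone 1 (adjusted p = 0.109) or WT clone 1 (adjusted p = 0.0511).

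Among the other inhibitors, Skil had 253 and 282 CPM in DM and 113 and 100.2 CPM in EM in KO-labelled clones, against 265 and 260.0 CPM in DM and 63.3 and 61.0 CPM in EM in WT clones. The genotypes overlapped in DM and stood apart in EM, where KO over WT was 0.78 ± 0.104 on the log2 scale. Ldlrad4 had 26.4 and 22.4 CPM in DM and 1.52 and 1.67 CPM in EM in KO-labelled clones, against 26.8 and 25.1 CPM in DM and 0.714 and 0.750 CPM in EM in WT clones. Its KO over WT log2 fold change in EM was 1.11 ± 0.198, from 62 and 32 counts. The Skil call between genotypes was lost without KO-labelled EM clone 1 (adjusted p = 0.0611) or WT EM clone 2 (adjusted p = 0.0581), and the Ldlrad4 call without any 1 of the 4 EM libraries (adjusted p = 0.0765 to 0.110). DM over EM was 2.52-fold for Skil and 15.3-fold for Ldlrad4 in KO-labelled clones, and 4.23-fold and 35.2-fold in WT clones.

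Smad7 had 15.2 and 20.8 CPM in DM and 6.87 and 4.96 CPM in EM in KO-labelled clones, against 36.9 and 32.2 CPM in DM and 6.24 and 4.64 CPM in EM in WT clones. The DM groups did not overlap, but the KO over WT log2 fold change of −0.94 ± 0.242 did not pass (adjusted p = 0.0721). DM over EM was 3.04-fold in KO-labelled and 6.34-fold in WT clones. The KO-labelled call was lost without KO-labelled EM clone 1, EM clone 2 or DM clone 2 (adjusted p = 0.0595 to 0.114).

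Tgfbi had 178 and 314 CPM in DM and 44.4 and 43.9 CPM in EM in KO-labelled clones, against 78.3 and 162 CPM in DM and 56.4 and 48.5 CPM in EM in WT clones. In WT clones the difference between DM and EM did not pass (log2 fold change 1.20 ± 0.374, adjusted p = 0.0739), but passed with the clone as a block (1.11 ± 0.310, adjusted p = 0.0396), in a fit where 25.6% of all genes passed (14.9% higher, 10.7% lower). The rise in KO-labelled clones passed (2.48 ± 0.388, adjusted p = 0.0155), and was lost without EM clone 1, EM clone 2 or DM clone 2 (adjusted p = 0.0663 to 0.124). Ccn2 had 432 and 456 CPM in DM and 55.8 and 56.4 CPM in EM in KO-labelled clones, against 562 and 382 CPM in DM and 28.6 and 70.0 CPM in EM in WT clones. The genotypes overlapped in both media, and DM over EM was 7.91-fold in KO-labelled clones, a call lost without EM clone 1, EM clone 2 or DM clone 1 (adjusted p = 0.0514 to 0.0927), and 9.56-fold in WT clones. The log2 fold change of Ccn2 for KO over WT had 95% confidence intervals of −0.97 to 0.80 in DM and −0.71 to 1.09 in EM.

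Tgfbr3, the co-receptor, had 5.90 and 8.39 CPM in DM and 45.3 and 58.5 CPM in EM in KO-labelled clones, against 6.63 and 9.45 CPM in DM and 62.6 and 63.5 CPM in EM in WT clones. It fell by 2.86 ± 0.246 on the log2 scale in KO-labelled clones and by 2.97 ± 0.246 in WT clones. Between genotypes the values did not pass in either medium, with 95% confidence intervals of the log2 fold change of −0.74 to 0.41 in DM and −0.81 to 0.25 in EM.

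**Figure D3:**
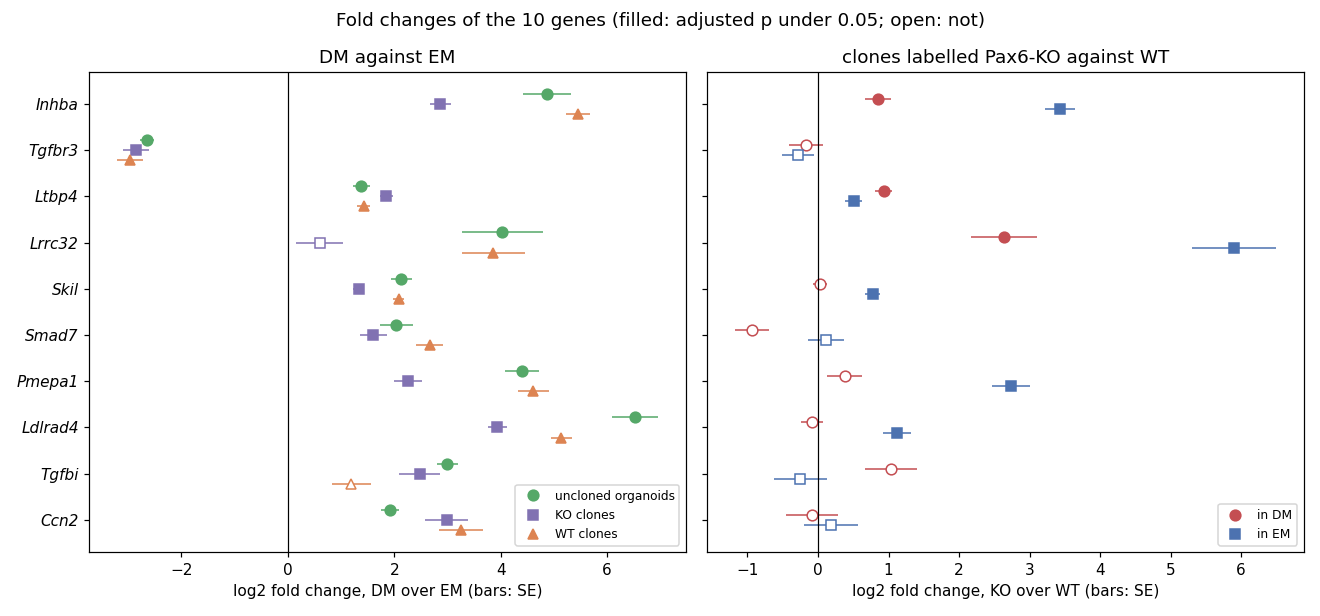
Log2 fold changes of the 10 genes with SE bars: left, DM over EM in uncloned organoids, KO-labelled clones and WT clones; right, KO-labelled over WT clones in DM and in EM. Filled points passed at an adjusted p under 0.05 and open points did not; Tgfbr3 is the 1 gene left of 0 in all 3 DM over EM comparisons, and Inhba, Lrrc32 and Pmepa1 are the 3 genes farthest right in EM between genotypes.

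Between genotypes in EM, 6 of the 10 genes were higher in KO-labelled clones and none was lower, where 9.80% of all genes passed (5.38% higher, 4.41% lower). Without KO-labelled EM clone 1 or WT EM clone 2, which leaves 1 library in a group, fewer of the 10 and also fewer of all genes passed in EM. In DM, 3 were higher and none lower, where 5.47% passed (2.39% higher, 3.08% lower). Inhba was the third of them, at a log2 fold change of 0.85 ± 0.185 (adjusted p = 0.0482), a call lost without KO-labelled DM clone 1 or 2 or WT DM clone 2 (adjusted p = 0.0698 to 0.194). The Lrrc32 call in DM was lost without KO-labelled DM clone 1 or 2 or WT DM clone 1 (adjusted p = 0.0888 to 0.121). Without KO-labelled DM clone 1 none of the 10 passed in DM in edgeR, with 5 at an unadjusted p under 0.05, and neither did any other gene, with 2373 at an unadjusted p under 0.05. The EM libraries enter both the genotype comparison in EM and the medium comparison within each genotype, so the larger EM level and the smaller rise in KO-labelled clones are not separate measurements.

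The difference in the medium effect between genotypes was tested as an interaction. In the fit without blocks no gene passed in edgeR (0 of 14282, with 1126 at an unadjusted p under 0.05), and 8 of the 10 genes were at an unadjusted p under 0.05. DESeq2, on the same design, called 195 genes (1.37%; 0.273% higher, 1.09% lower), among them 4 of the 10: Inhba, Skil, Pmepa1 and Lrrc32. With the clone as a block, since each clone was grown in both media, 0.490% of all genes passed in edgeR (0.0420% higher, 0.448% lower) and 3 of the 10 did. These were Inhba (−2.56 ± 0.256 on the log2 scale, adjusted p = 0.0255), Pmepa1 (−2.31 ± 0.186, adjusted p = 0.0107) and Lrrc32 (−3.18 ± 0.351, adjusted p = 0.0255), each with a smaller DM over EM change in KO-labelled clones. Within clones, the DM minus EM difference of Inhba was 2.81 and 2.93 in KO-labelled clones 1 and 2, against 5.80 and 5.03 in WT clones 1 and 2, on the log2 scale. For Ltbp4 and Tgfbi the interaction was positive, at 0.43 ± 0.185 (adjusted p = 0.409) and 1.31 ± 0.434 (adjusted p = 0.271) with the block, and did not pass.

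Markers in the clones also moved. Myoepithelial markers summed to 32.1 to 36.9 CPM in DM and 1.31 to 1.72 CPM in EM in KO-labelled clones, with 2 of 5 tested higher, against 11.7 to 30.1 CPM in DM and 1.43 to 3.71 CPM in EM in WT clones, with 1 of 5 higher. Leukocyte markers summed to 31.4 to 40.3 CPM in DM and 33.6 to 63.4 CPM in EM in KO-labelled clones, against 125 to 193 CPM in DM and 98.9 to 153 CPM in EM in WT clones. The sums of fibroblast markers were 57.8 to 85.0 CPM in DM and 104 to 157 CPM in EM in KO-labelled clones, against 76.0 to 127 CPM in DM and 244 to 279 CPM in EM in WT clones. Of 2 fibroblast markers tested, 1 was higher in KO-labelled clones in each medium, although the sums in EM were lower in KO-labelled than in WT clones. Of 2 leukocyte markers tested, 1 was lower in KO-labelled clones in DM, and neither passed between genotypes in EM. In all 8 clone libraries Mfap5 and Col1a2 among the fibroblast markers, and Emcn among the endothelial ones, were at 0. Endothelial and pericyte markers summed to 15.3 to 87.5 CPM in DM and 7.25 to 7.37 CPM in EM in KO-labelled clones, against 15.4 to 30.0 CPM in DM and 4.15 to 5.21 CPM in EM in WT clones. Acinar markers summed to 345 to 411 CPM in DM and 681 to 684 CPM in EM in KO-labelled clones, against 275 to 511 CPM in DM and 230.0 to 269 CPM in EM in WT clones. Of 6 acinar markers tested, 1 fell in DM in KO-labelled clones and 1 rose in WT clones, and between genotypes 1 was lower in KO-labelled clones in DM and 1 higher in EM. The median KO over WT log2 fold change of these 6 was −0.125 in EM, so the larger sum there was not a rise of the list as a whole. The part of these markers in the results was not tested.

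The wider pathway was read from 68 other genes in 5 lists, of which 61 were tested in the first table and 57 in the clone table. In uncloned organoids 35 of the 61 rose in DM and 5 fell, in KO-labelled clones 15 of the 57 rose and none fell, and in WT clones 23 rose and 1 fell. Of all genes, 17.2% rose and 13.2% fell in uncloned organoids, 4.94% rose and 3.41% fell in KO-labelled clones, and 9.61% rose and 6.13% fell in WT clones. With the clone as a block, 21 of the 57 rose and 1, Snai2, fell in KO-labelled clones (−0.46 ± 0.110, adjusted p = 0.0332), and 29 rose and 3 fell in WT clones. In that fit 9.25% of all genes rose and 7.12% fell in KO-labelled clones, and 14.9% rose and 10.7% fell in WT clones. Without the block, the tested genes had a median log2 fold change of 0.53 in uncloned organoids, 0.43 in KO-labelled and 0.64 in WT clones. The median of all genes was close to 0 in each. Without any 1 of the 4 libraries compared in KO-labelled clones, fewer of these genes and also fewer of all genes passed. The same held in WT clones without WT EM clone 1.

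Of the 9 ligands in the list, 6 were tested. Tgfb1 rose in all 3 comparisons, with 35.7, 50.02 and 30.1 CPM in DM, against 25.6, 24.0 and 29.9 CPM in EM, in uncloned lines 6, 7 and 8. Its log2 fold change was 0.58 ± 0.0950 in KO-labelled clones and 0.62 ± 0.0946 in WT clones. Tgfb2, Inhbb and Gdf11 fell in uncloned organoids, by 0.82 ± 0.124, 0.84 ± 0.158 and 2.42 ± 0.456, and the list's median was −0.41 there. Of the 8 receptors, 7 were tested: Tgfbr1 rose in uncloned organoids (0.64 ± 0.181), and Tgfbr2, the receptor that binds TGF-beta first, fell to 69.8, 65.4 and 67.9 CPM in DM, against 145, 114 and 150 CPM in EM. In the clones edgeR called 0 of the 7 receptors in KO-labelled clones, with 2 at an unadjusted p under 0.05, and 1 in WT clones, Acvr1b (0.41 ± 0.101).

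Latency and extracellular regulators moved mostly upward: 8 of 12 tested rose in uncloned organoids, 2 of 9 in KO-labelled clones and 6 of 9 in WT clones, and none fell. With the clone as a block 5 of 9 rose in KO-labelled clones and 7 of 9 in WT clones, where 9.25% and 14.9% of all genes rose. The difference in counts between genotypes was not tested. Fst, which encodes follistatin, the secreted antagonist that binds activin, had 37.2, 33.8 and 39.0 CPM in DM, against 5.02, 5.41 and 5.46 CPM in EM, in uncloned organoids. It rose by 2.40 ± 0.478 in KO-labelled clones and by 2.94 ± 0.500 in WT clones on the log2 scale. Itgb6, a subunit of the integrin that releases TGF-beta from its latent form on epithelia, had 106, 87.5 and 46.5 CPM in DM, against 16.8, 16.4 and 19.8 CPM in EM. Its log2 fold change was 1.76 ± 0.165 in KO-labelled clones and 2.37 ± 0.169 in WT clones.

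Of 16 Smads and Smad regulators tested in each table, 7 were higher in uncloned organoids, 1 in KO-labelled clones and 2 in WT clones, none lower, and medians of 0.22, 0.10 and 0.16 in these comparisons. Of all genes, 17.2%, 4.94% and 9.61% rose in these comparisons, and in the clones the counts of 1 and 2 of 16 are near that background. Smurf1, a ubiquitin ligase that Smad7 brings to the receptors, was the gene called in all 3, at 0.54 ± 0.129, 0.76 ± 0.155 and 1.11 ± 0.156. Among widely used response genes, 15 of 20 tested rose and 1 fell in uncloned organoids, 11 of 19 rose in KO-labelled clones and 13 of 19 in WT clones. The medians were 1.93, 1.25 and 2.06. Col7a1, which encodes the anchoring-fibril collagen, had 89.0, 134 and 65.8 CPM in DM, against 2.70, 5.37 and 4.51 CPM in EM, in uncloned organoids, and rose by 1.66 ± 0.167 in KO-labelled and by 2.54 ± 0.167 in WT clones. Timp1, a metalloprotease inhibitor, rose by 4.01 ± 0.372 in KO-labelled clones. With the line or clone as a block it rose in all 3 comparisons. These rises were 5.33 ± 0.286 in uncloned organoids, 4.01 ± 0.293 in KO-labelled clones and 3.62 ± 0.306 in WT clones.

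Against gland, 39 of the 61 tested genes were higher in DM organoids and 11 lower, and 33 were higher in EM organoids and 15 lower. Of all genes tested, 38.1% were higher and 37.4% lower in DM organoids, and 37.4% were higher and 37.4% lower in EM organoids. With scaling by library totals the splits of the 61 were 52 and 4 in DM and 48 and 8 in EM. With that scaling 84.0% of all genes were higher and 9.26% lower in DM. In EM 83.8% were higher and 9.49% lower, so both splits were near the background. Tgfb2 had 24.96, 25.8 and 33.4 CPM in DM and 48.5, 50.9 and 49.6 CPM in EM, against 2.49, 3.65 and 3.98 CPM in gland. Eng, the endothelial co-receptor endoglin, had 0.410, 0.730 and 0.317 CPM in DM and 0.166, 0.110 and 0.166 CPM in EM, against 8.52, 7.29 and 10.3 CPM in gland.

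**Figure D4:**
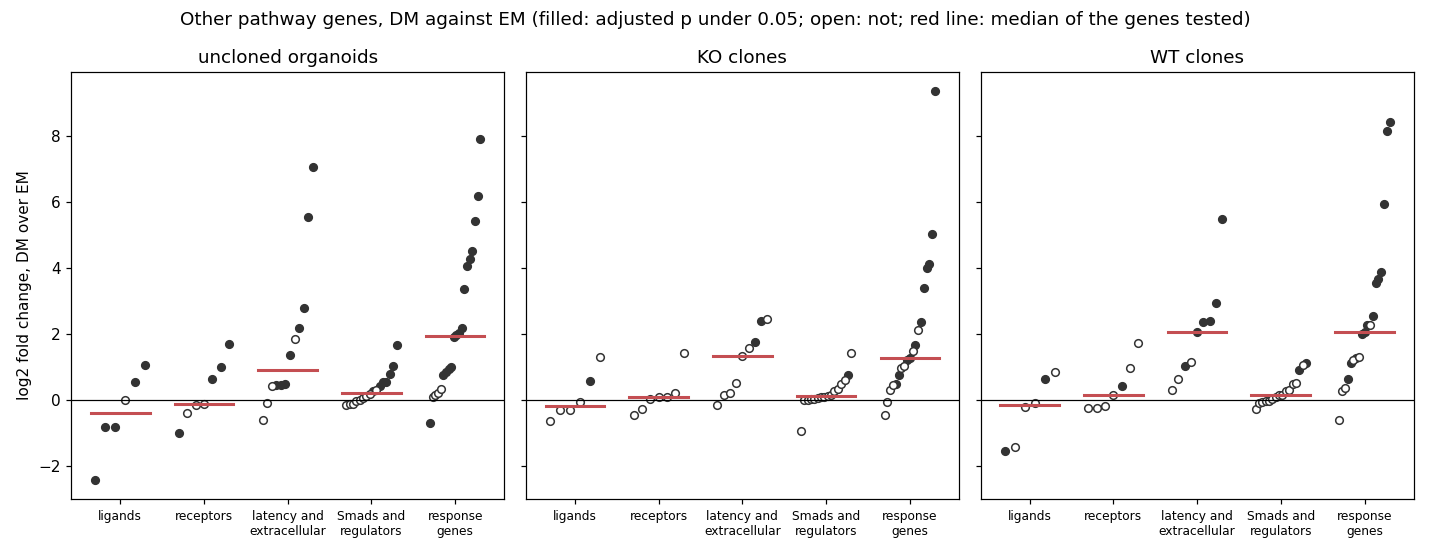
Log2 fold change of DM over EM for each tested gene of the 5 lists of other pathway genes (columns of points, sorted) in uncloned organoids, KO-labelled clones and WT clones; filled points passed at an adjusted p under 0.05, open ones did not, and red lines are medians. The medians of the response genes are 1.93, 1.25 and 2.06; the highest point in KO-labelled clones is Postn with 2 EM counts and the second highest in WT clones Angptl4 with 0 EM counts, so both values depend on the prior count and bound nothing.

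Between genotypes, 6 of the 57 were higher and 1 lower in KO-labelled clones in EM, where 9.80% of all genes passed, and 2 were higher and 2 lower in DM, where 5.47% passed. Taken in either direction, both counts are near that background, so the genes named next are single calls. In EM, fewer of the 57 and also fewer of all genes passed without any 1 of the 4 libraries. In DM the same held without WT clone 1 or KO-labelled clone 1 or 2. Ltbp1, another latent TGF-beta binding protein, was higher in KO-labelled clones in EM, at 288 and 367 CPM, against 85.9 and 110 CPM in WT clones (log2 fold change 1.74 ± 0.190). Tgfb3, a ligand, was higher in both media, by 3.05 ± 0.634 in DM (adjusted p = 0.0431) and 2.60 ± 0.640 in EM (adjusted p = 0.0496). Lox, a collagen cross-linking enzyme, was higher in both as well, by 3.31 ± 0.592 and 4.21 ± 0.925. Col7a1 was lower in DM, at 16.7 and 15.1 CPM, against 50.6 and 43.7 CPM in WT clones (−1.57 ± 0.160). In the interaction none of the 57 passed without blocks, with 7 at an unadjusted p under 0.05 and 3 called by DESeq2, and with the clone as a block Ltbp1 (−1.18 ± 0.154) and Igfbp3 (−1.58 ± 0.212) did (adjusted p = 0.0373 for both).

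Over the 14 organoid libraries, with each table centred on its own mean, the 8 members other than Tgfbr3 and Lrrc32 correlated with each other at Pearson's r of 0.777 to 0.988 in 28 pairs. Lrrc32 correlated with them at 0.495 to 0.832, and Tgfbr3 with the 9 others at −0.975 to −0.595. These libraries share 2 media and 2 tables. Centring was not done within genotype, so in the clones differences between genotypes enter along with those between media, and the values carry no p. Among 9843 genes with at least 5 CPM in a group, the third most like Inhba was Pmepa1 (r = 0.988), after 1500009C09Rik and Stab1, and Inhba was the second most like Pmepa1, after Gcnt2 (0.991). The genes most like the others were Orai2 for Skil (0.994), Fbxo6 for Smad7 (0.991), Rflnb for Ldlrad4 (0.992), Cpne8 for Tgfbi (0.962), Scly for Ccn2 (0.978), Cmc2 for Tgfbr3 (0.980), Ezr for Ltbp4 (0.990) and St3gal1 for Lrrc32 (0.980).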

How the data were processed

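Per the labels' protocols, RNA was extracted with a column kit from organoids freed of basement membrane extract and sequenced from stranded polyA libraries. STAR, featureCounts and GRCm38 are named in the submitters' processing notes; their versions, the strand setting and the annotation release were not given in those sources. The deposited values are raw counts per gene ID made by the authors, not normalised: 38293 IDs in 9 libraries and 55487 IDs in 8. Symbols, coordinates and exon lengths came from GENCODE M21, which matched 36345 and 55141 IDs; promoters came from RefSeq GRCm38.p6.

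Each table was fitted alone with edgeR 4.0.16 in R 4.3.3 (filterByExpr, TMM, 1 mean per group, quasi-likelihood test, all genes adjusted together, called under 0.05), leaving 13713 and 14282 genes with 6 and 4 residual degrees of freedom and biological coefficients of variation of 0.138 and 0.234. An SE is |log2 fold change| / √F. CPM use TMM-scaled library sizes. Scripts were tested on simulated data. Alternatives were DESeq2 1.42.0 (size factors, Wald test), total-count scaling, no filter, a block on the line or clone, only the groups compared, and each library left out. Same-numbered DM and EM libraries come from the same line or clone per the labels; their deviations from group means correlated at 0.18, 0.12 and 0.093 for lines 6, 7 and 8, 0.51 for KO-labelled and 0.60 for WT clones, while KO-labelled and WT clones share only a number. For same-numbered gland and organoid libraries the correlations were near 0, at −0.026, 0.062 and 0.042 for EM and −0.073, 0.037 and 0.085 for DM. Nothing states that cultures of a line are independent of one another, so p-values measure the spread between these libraries.

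The 10 genes and all lists were chosen with earlier results of these data known. The text names all 10 genes and takes other names from up to 3 called genes with the smallest p per list and comparison, ligands and receptors of at least 10 CPM by level, and the 3 genes most like each of the 10 (Pearson's r, log2 CPM with a prior count of 2).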

Additional observations from a re-analysis of the deposited data

Results flagged for a closer look

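With the clone as a block, 3 of the 10 genes passed the test of the interaction of genotype and medium itself (edgeR quasi-likelihood, adjusted over all genes). In that fit 0.490% of all genes passed (0.0420% higher, 0.448% lower). The 10 genes were chosen with these data known, so the 3 calls are not independent support. The block leaves fewer residual degrees of freedom than the 4 of the fit without it. The interaction was −2.56 on the log2 scale for Inhba (adjusted p = 0.0255), −2.31 for Pmepa1 (adjusted p = 0.0107) and −3.18 for Lrrc32 (adjusted p = 0.0255). In each the DM minus EM difference was smaller in both KO-labelled clones than in both WT clones: for Pmepa1 it was 2.10 and 2.46 in KO-labelled clones, against 4.46 and 4.70 in WT clones, and for Lrrc32 0.89 and 0.43, against 3.14 and 3.88. Without the block the 3 values were −2.58, −2.35 and −3.26 and none passed (adjusted p = 0.211, 0.255 and 0.341).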

How the results depend on the processing

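The DM over EM direction held for all 10 genes in uncloned organoids and in both genotypes under every setting tried, and all 10 uncloned calls passed under every one. Scaling by library totals in place of TMM turned Smad7 (1.33) and Ltbp4 (1.12) in EM over gland, and Tgfbr3 (0.39) and Lrrc32 (1.37) in DM over gland, to higher in organoids. It also moved the split of all called genes, higher to lower, to 1952 and 2597 in uncloned DM over EM (as reported 2352 and 1806), 1209 and 1144 in WT clones (as reported 1372 and 875), 408 and 403 for KO over WT in DM (as reported 341 and 440), 11493 and 1302 in EM over gland (as reported 5130 and 5129) and 11516 and 1270 in DM over gland (as reported 5223 and 5135).

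Counts of the 10 genes moved by over 1.5 times for KO over WT in DM (as reported 3), to 5 without a filter, 5 in DESeq2 (with Smad7 and Tgfbi, adjusted p = 0.0131 and 0.0321) and 0 with only the groups compared (4 at an unadjusted p under 0.05), and for the interaction (as reported 0), to 5 without a filter, 4 in DESeq2 and 3 with the clone as a replicate block. Counts of other pathway genes moved for DM over EM in KO-labelled clones (as reported 15), to 25 without a filter and 24 in DESeq2; in WT clones (as reported 24), to 14 with only the groups compared; for KO over WT in EM (as reported 7), to 17 without a filter and 13 in DESeq2; for KO over WT in DM (as reported 4), to 19, 14 and, with only the groups compared, 2; and for the interaction (as reported 0), to 6, 3 and, with the block, 2.

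Over all genes, the reported counts were 2247 for WT DM over EM, 1193 for KO-labelled DM over EM, 1399 for KO over WT in EM, 781 in DM and 0 for the interaction. Without a filter they were 3497, 2572, 2947, 2547 and 657; with the block 3650, 2338 and, for the interaction, 70; DESeq2 gave 1973 for KO-labelled DM over EM and 2222, 1681 and 195 for the last 3; only the groups compared gave 924 in WT clones and 110 for KO over WT in DM. Apart from the calls named in the report and Skil in EM over gland, which passed with the line as a block (adjusted p = 0.037), the block changed no other call of the 10 genes. For KO over WT in EM, the Ldlrad4 call was lost in edgeR with only the groups compared (adjusted p = 0.121). The Ltbp4 call in EM was lost in edgeR with only the groups compared (adjusted p = 0.0687) and with scaling by library totals (adjusted p = 0.058).

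Leaving out 1 library gave 5 to 8 of the 10 genes in KO-labelled DM over EM, 8 to 10 in WT, 3 to 4 for KO over WT in EM, 0 to 2 in DM and 0 to 1 for the interaction (Inhba without WT DM clone 2), 8 to 9 in DM over gland and 6 to 7 in EM over gland. Other pathway genes ranged over 3 to 6, 13 to 22, 1 to 3, 0 to 5 and 0 in the 5 clone comparisons, 30 to 41 in uncloned DM over EM, 48 to 52 in DM over gland and 46 to 49 in EM over gland. All genes ranged over 82 to 284, 789 to 1956, 175 to 494, 0 to 524 and 0 to 14 in the clones. With 1 library left in an arm, it is assumed to vary like the other groups. The cause of these changes was not tested. Blocks on line or clone were fitted for DM over EM, the gland comparisons and the interaction; for KO over WT within a medium no paired analysis was possible because the clones share only a number. Low counts limit Inhba in gland and Lrrc32 and Ldlrad4 in uncloned EM.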
